A study of Danio rerio with 16 samples.

Results

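The core circadian clock genes bmal1a, bmal1b, clockb, per1b, per2, per3, cry1b, cry2, cry4 and cry5 were followed in the fast muscle of exercised and non-exercised zebrafish. Every non-control probe whose RefSeq accession maps to one of these 10 genes was taken, which gave 13 of the 43803 probes. There were 3 probes for per1b, a pair for cry1b and a single probe for each other gene. Probes were taken by accession and not by their values, but the genes were chosen with earlier results of these data known. RNA of 8 exercised and 8 non-exercised adult wild-type fish was hybridised to single-colour Agilent arrays, with 1 array per fish. Exercised fish swam at 0.4 m/s in daily sessions over 20 days, and non-exercised fish rested at 0.1 m/s over the same days. Both groups were bought from a pet shop and lived at one temperature under a long-day light cycle, fed before and after each training session. Each group had a swim tunnel of its own, so tunnel and training cannot be told apart. The time of day at which the muscle was taken is not given in the sources used here, nor are the age in months and the sex of the fish.

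In vertebrates, Clock and Bmal proteins pair and switch on the per and cry genes, and Per and Cry proteins return to the nucleus and block that pair, so that the transcripts of both arms cycle through the day. Zebrafish carry extra copies of many clock genes, and their muscle and other tissues hold clocks that light can set directly. A single sampling of a tissue gives 1 point of such a cycle. The bmal and clock genes are called the positive arm here (3 probes), and the per and cry genes the negative arm (10 probes). These arms follow the gene names alone.

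Signals are given on the log2 scale relative to the 75th percentile of that array (control spots excluded), so a value of 0 is the signal of that percentile. A probe was called when limma gave a Benjamini-Hochberg adjusted p under 0.05 over all 43803 probes. The study's methods name a t-test at p under 0.01 and no such adjustment. What is called the adjusted test of the methods below is that t-test with the same adjustment and threshold as for limma. The signal of a spot can also be well above background or not by the scanner software's own test, and a probe that failed that test on every array of a group has no measured level there. Probes bind with different strength, so differences were taken between fish within a probe. The brightness of probes was compared only to describe or choose them, and not to compare the levels of genes.

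The arrays of exercised fish lay on slides 3 and 4 and those of non-exercised fish on slides 1 and 2, with 4 arrays per slide. Each slide held 1 group, and no scan day was shared between the groups, so training cannot be told apart from scan day. The lowest signal that counted as well above background lay between -1.45 and 0.09 on the arrays of slide 4, against -3.49 to -2.29 on slide 3 and -2.86 to -1.31 on the non-exercised arrays. Of 19 probes for fast muscle genes, 16 were well above background on every array. So were 6 of 7 probes of the slow muscle list and 5 of 7 for red blood cell genes, so detection alone does not single out fast muscle. Of the 19 fast muscle probes, 1 was called lower (tnnt3a, at least 2.10-fold lower, with no exercised array well above background) and none higher. At an unadjusted p under 0.05 in limma, 4 of them were higher and 2 lower, and the adjusted test of the methods called 1. All 7 probes of red blood cell genes had a positive difference, and none was called by limma or by that test, with 6 higher at an unadjusted p under 0.05, a lowest adjusted p of 0.0537 and a median difference of 1.32. The mean signal of the 4 red cell probes with a value on every array lay between -0.49 and 2.67 in exercised fish and between -2.09 and 0.20 in non-exercised fish, and the defining globin probes hbaa1, hbba1 and hbba2 were well above background on all arrays. Slow muscle (7 probes), skin (13 probes) and endothelium (5 probes) had no called probe by either test, with 1, 2 and 0 at an unadjusted p under 0.05 in limma. The 1 on the slow muscle list was a probe of actc1b, higher by 0.92. Both actc1b probes had a positive difference, and the other 5 of that list a negative one. Whether actc1b marks slow muscle here was not tested. Over all probes, limma called 4.58% higher and 1.79% lower, and at an unadjusted p under 0.05 it found 12.2% higher and 7.41% lower. The part of these other cells in the values below was not tested, and in whole muscle fewer cells of a type and less RNA per cell cannot be told apart.

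Among the clock probes, the cry5 probe gave a higher signal in exercised fish (log2 difference 1.13 ± 0.33, SE) and was the only one called. This was 1 of 13 probes called higher, where 4.58% of all probes were called higher, and none was called lower, where 1.79% of all probes were. At an unadjusted p under 0.05, limma found 2 clock probes higher (cry5 and per3) and 1 lower (bmal1b), where 12.2% of all probes were higher and 7.41% lower at that threshold. The adjusted test of the methods found none in either direction. At the methods' own threshold, an unadjusted t-test p under 0.01, cry5 was higher and bmal1b lower, where 6.58% of all probes were higher and 4.15% lower. A count of 1 in 13 probes is near the share of all probes, and it is no result about the clock as a group. Of the 13 probes, 8 were well above background on at least 1 array of each group, 3 on all 16 arrays (bmal1a, the brightest per1b probe and cry4) and 2 on none.

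**Figure D1:**
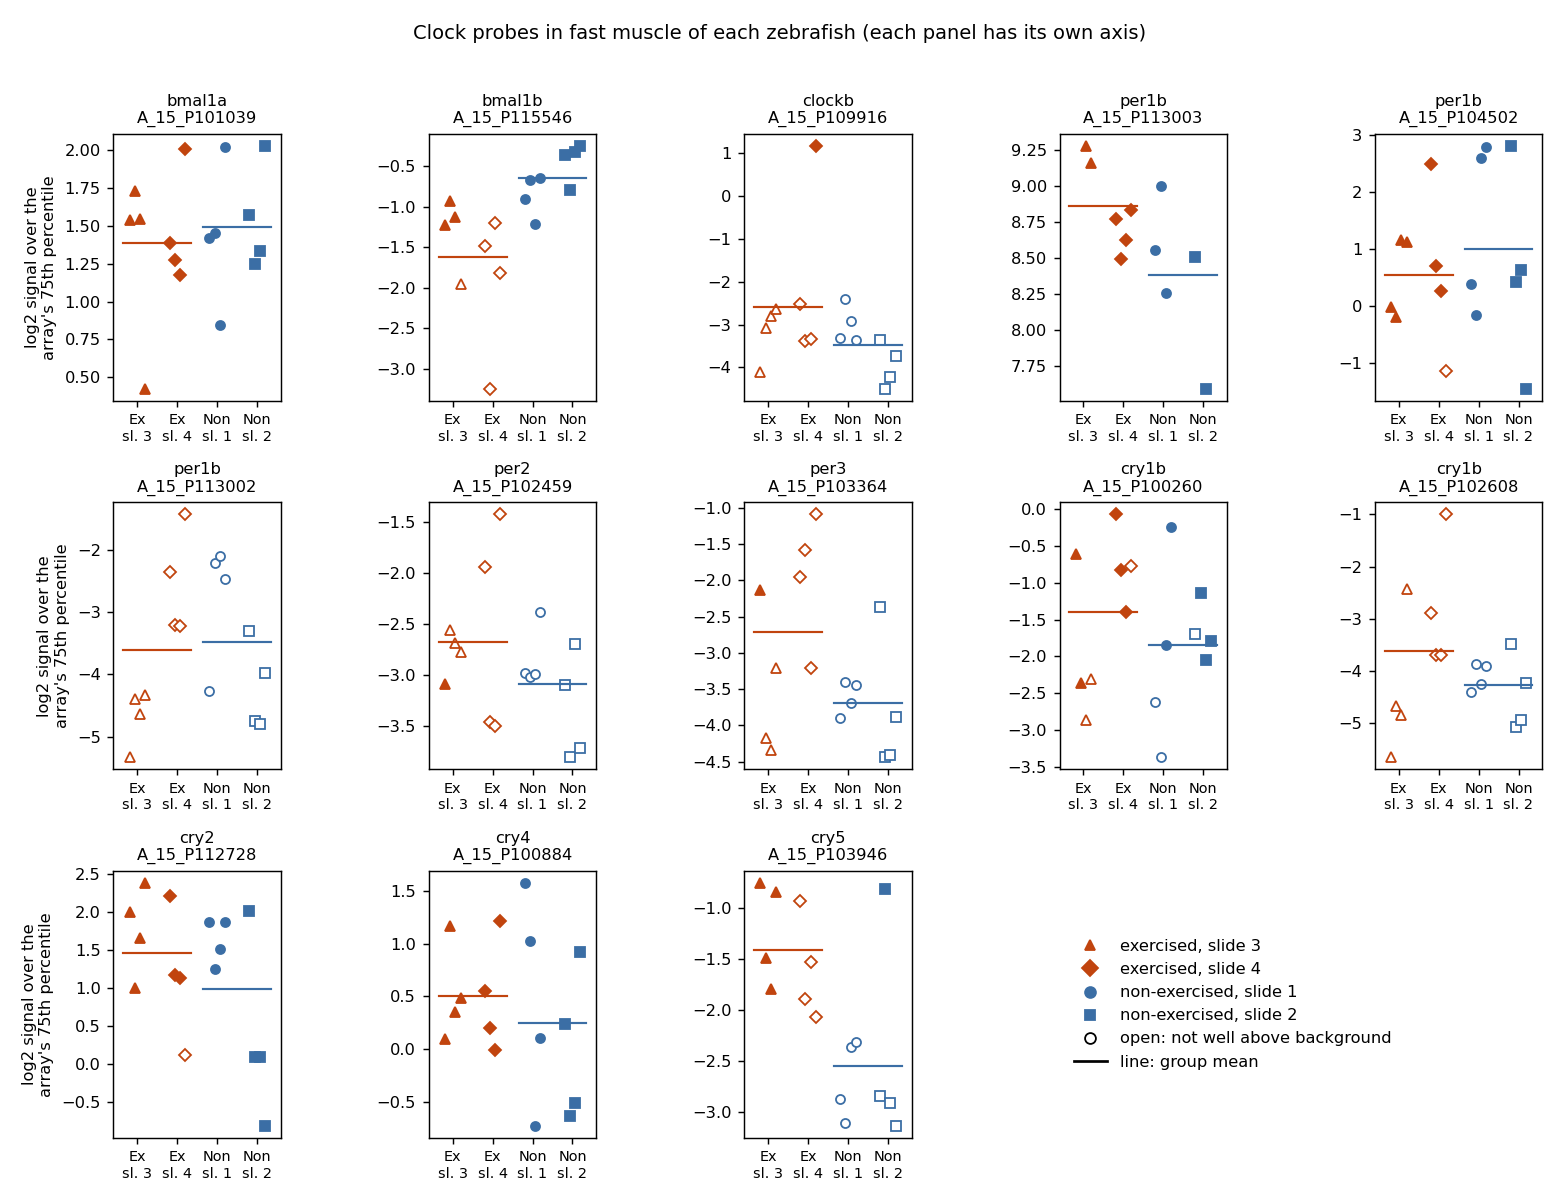
Signal of the 13 clock probes in each fish, as log2 over the 75th percentile of its array (vertical axis, own scale per panel), with exercised fish (slides 3 and 4) left of non-exercised fish (slides 1 and 2). Filled points were well above background, open points were not, and lines are group means over the fish with a value. The groups overlap in every panel, and cry5 is filled on all 4 arrays of slide 3 and on 1 non-exercised array.

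In the positive arm, bmal1a and bmal1b encode partners of Clock. The bmal1a probe (A_15_P101039) was well above background on all 16 arrays. It had a lowest, median and highest signal of 0.43, 1.46 and 2.01 in exercised fish, against 0.84, 1.44 and 2.03 in non-exercised fish. The groups overlapped over nearly their whole ranges. The difference was -0.10 ± 0.26 (SE), with a 95% interval of -0.64 to 0.44 and a limma adjusted p of 0.82. The interval leaves room for a change of up to 0.64 downward or 0.44 upward on the log2 scale. The sign of this difference turned under cyclic loess normalization, where it was 0.03.

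The bmal1b probe (A_15_P115546) was dimmer and its groups lay farther apart. In exercised fish it measured -1.22, -0.93, -1.12 and -1.95 on slide 3 and -1.49, -3.25, -1.20 and -1.82 on slide 4. In non-exercised fish it measured -0.90, -0.66, -1.21 and -0.64 on slide 1 and -0.36, -0.79, -0.33 and -0.25 on slide 2. All 8 exercised fish were below the non-exercised mean, and 5 of them were below every non-exercised fish. The difference was -0.98 ± 0.31 (SE; 95% interval -1.62 to -0.34). It did not pass the threshold, with a limma adjusted p of 0.0634.

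The bmal1b signal was well above background on 3 of the 4 arrays of slide 3, on none of slide 4 and on all 8 non-exercised arrays. Exercised fish of slide 3 alone, set against all non-exercised fish, gave -0.66 with an adjusted p of 0.20. The probe passed the threshold when exercised fish of slide 4 alone were used, but with no array of that slide well above background it has no measured level there, and no size is given. Exercised fish 6 had the lowest value, and without it the difference was -0.75. A median shift and cyclic loess brought bmal1b past the threshold, with adjusted p of 0.0308 and 0.0377, while quantile normalization and both other background corrections did not.

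The clockb probe (A_15_P109916), for the partner of the Bmal proteins, was well above background in 1 fish, exercised fish 8, at 1.16. The other exercised fish lay between -4.11 and -2.51 and the non-exercised fish between -4.49 and -2.41. No array of non-exercised fish was well above background for clockb, so no fold change is given (limma adjusted p 0.43).

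In the negative arm, per1b encodes a Period protein whose transcript cycles with the clock in zebrafish tissues. Its 3 probes gave separate pictures. The brightest (A_15_P113003) was among the brightest of the array, with 287 of 43803 probes brighter. Spots of 2 exercised and 3 non-exercised fish were marked as outliers by the scanner software and left out. The remaining 6 exercised fish had a lowest, median and highest signal of 8.49, 8.80 and 9.28, against 7.59, 8.50 and 9.0 in the remaining 5 non-exercised fish. The ranges overlapped, and the difference of 0.48 ± 0.32 (SE; 95% interval -0.21 to 1.17) had a limma adjusted p of 0.48.

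The per1b probe of medium signal (A_15_P104502) ran from -1.15 to 2.49 in exercised fish (median 0.48) and from -1.45 to 2.81 in non-exercised fish (median 0.52). It varied more between fish of a group than any other clock probe that was well above background on at least 15 arrays, with an SD of 1.09 in exercised fish and 1.57 in non-exercised fish. Its difference was -0.45 ± 0.61 (SE; 95% interval -1.73 to 0.83; limma adjusted p 0.70). The dimmest per1b probe (A_15_P113002) was not well above background on any array. After the group means were taken out, the bright and the medium probe correlated at r = -0.04 over 11 fish, as a description. One gene symbol thus covered probes that did not vary together. Which of them reads per1b was not tested.

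The per2 gene is switched on by light in zebrafish, and per3 encodes a further Period protein. Each was well above background in 1 exercised fish and in no non-exercised fish, so neither has a fold change. The per2 probe (A_15_P102459) lay between -3.50 and -1.42 in exercised fish and between -3.81 and -2.38 in non-exercised fish (limma adjusted p 0.55). The per3 probe (A_15_P103364) lay between -4.34 and -1.09 in exercised fish and between -4.44 and -2.37 in non-exercised fish (limma adjusted p 0.24). The 3 highest per3 values, -1.95, -1.58 and -1.09, were all on slide 4, where none of them was well above background.

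Some cryptochromes bind Period proteins in the repressor complex, and the family also holds relatives that repair DNA. The brighter cry1b probe (A_15_P100260) was well above background on 5 arrays of each group. It ran from -2.86 to -0.07 in exercised fish (median -1.11) and from -3.37 to -0.24 in non-exercised fish (median -1.82), with a difference of 0.44 ± 0.45 (SE; 95% interval -0.51 to 1.39; limma adjusted p 0.65). This difference was -0.20 with the exercised fish of slide 3 alone and 1.08 with those of slide 4 alone. The second cry1b probe (A_15_P102608) was not well above background on any array.

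The cry2 probe (A_15_P112728) passed the background test in 7 exercised and 8 non-exercised fish, and cry4 (A_15_P100884) on all 16. The cry2 signal had a lowest, median and highest value of 0.12, 1.42 and 2.39 in exercised fish, against -0.80, 1.38 and 2.02 in non-exercised fish. The cry4 signal had -0.0078, 0.41 and 1.22 in exercised fish, against -0.72, 0.17 and 1.57 in non-exercised fish. Both pairs of ranges overlapped. The differences were 0.47 ± 0.43 (SE; 95% interval -0.44 to 1.38; limma adjusted p 0.61) for cry2 and 0.26 ± 0.35 (SE; 95% interval -0.47 to 0.98; limma adjusted p 0.70) for cry4.

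The called probe, cry5 (A_15_P103946), belongs to the gene of the 6-4 photolyase, an enzyme that uses light to repair ultraviolet damage in DNA and stands beside the clock repressors only by family. It measured -0.75, -1.49, -1.80 and -0.84 in the exercised fish of slide 3 and -0.93, -1.89, -1.52 and -2.07 in those of slide 4. In non-exercised fish it measured -2.87, -3.10, -2.36 and -2.31 on slide 1 and -2.84, -0.82, -2.91 and -3.13 on slide 2. All 8 exercised fish were above the non-exercised mean, but only 1 was above every non-exercised fish, because non-exercised fish 6 lay among the exercised values. The log2 difference was 1.13 ± 0.33 (SE; 95% interval 0.44 to 1.83), with a limma adjusted p of 0.0477. This is a difference of spot signals and not a measured fold, since fish 6 was the only non-exercised fish with a measured cry5 level.

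The cry5 signal was well above background on all 4 arrays of slide 3, on none of slide 4 and on 1 of the 8 non-exercised arrays. Its 4 values on slide 4 were each below the lowest signal that was well above background on the same array. Against all non-exercised fish, the exercised fish of slide 3 alone gave 1.32 (limma adjusted p 0.0817). The exercised fish of slide 4 alone gave 0.94 (limma adjusted p 0.0899), from values that were not well above background. Probes of clocka, npas2 and bmal2, which were below background on every array, gave 1.29, 1.24 and 0.93 in the same comparison, so the slide 4 value of cry5 is no measured difference. The call was lost under each of the other 5 scalings and background corrections, with adjusted p from 0.0662 to 0.414, and the direction stayed positive in all of them. With the slide as a random block the adjusted p was 0.63. That fit lets fish of a slide be alike (correlation 0.30), and it called 0.187% of all probes higher and 0 lower. The main fit takes fish of a slide as independent. With 1 fish left out the adjusted p ran from 0.0061 to 0.0948, and the call was kept only without non-exercised fish 6, exercised fish 6 or exercised fish 8.

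**Figure D2:**
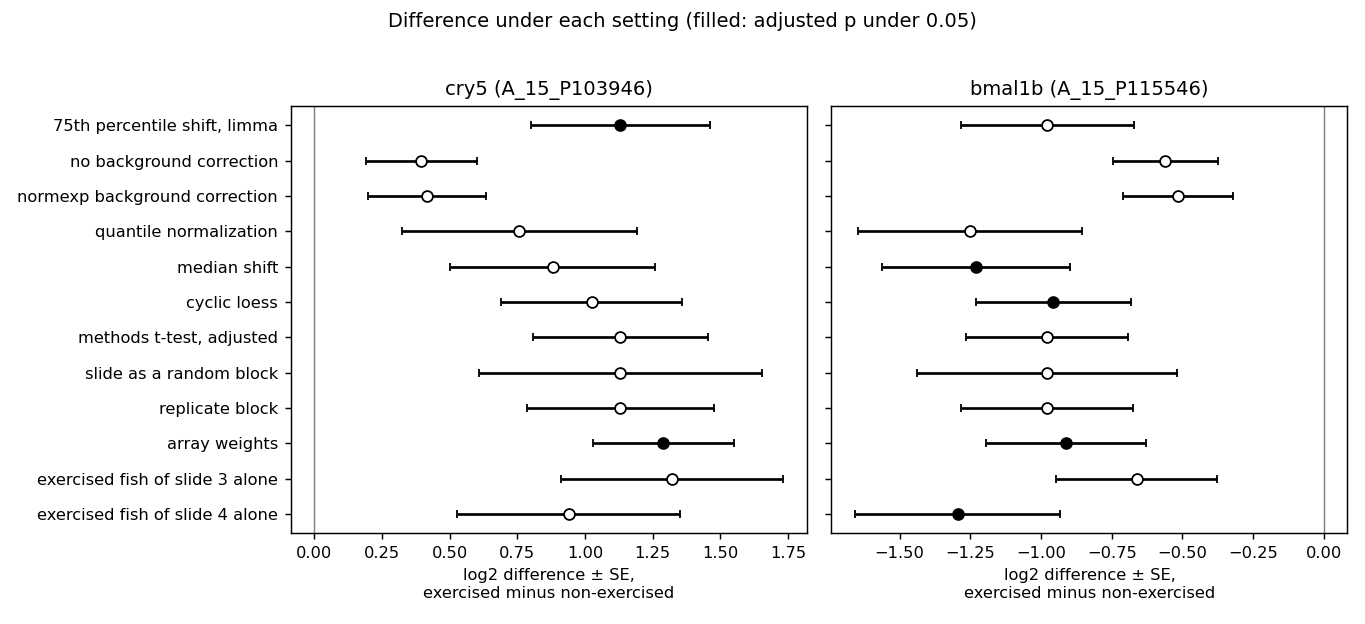
Log2 difference of exercised minus non-exercised fish with its SE (horizontal axis) for cry5 and bmal1b under 12 settings (vertical axis), filled where the adjusted p was under 0.05. The cry5 difference is positive and the bmal1b difference negative in every row, and the filled points differ between the panels: cry5 is filled at the 75th percentile shift and with array weights, bmal1b under the median shift, cyclic loess, array weights and slide 4 alone. Neither probe was well above background on any array of slide 4.

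The calls of the clock probes depended on which slide stood for the exercised fish. With slide 3 alone, no clock probe was called, where 3.01% of all probes were called higher and 1.41% lower. With slide 4 alone, 2 clock probes were called higher (per3 and the dim cry1b probe A_15_P102608), where 33.2% of all probes were called higher, and 1 was called lower (bmal1b), where 2.5% were called lower. None of these 3 probes passed the background test on slide 4, and neither probe called higher passed it in any non-exercised fish.

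Set side by side, the arms are described here by the signs and medians of their probes. The clockb, per2, per3, dim cry1b and dimmest per1b probes had no measured level in at least 1 group. The signs of those probes are therefore not measured changes. The positive arm had 1 of 3 probes with a positive difference and a median of -0.10, and the negative arm had 8 of 10 with a median of 0.46. Over all 43803 probes, 64.9% had a positive difference and the median was 0.26. Over the probes well above background in at least 1 array of each group, a limit added after the values were seen, the positive arm held bmal1a and bmal1b, with a median of -0.54. The negative arm held 6 probes there, 5 of them positive, with a median of 0.46. The 23039 such probes of the whole array had a median of -0.03, with 48.1% positive. These medians are a description of single probes of which 1 passed the test, and the difference between the arms was not tested. The negative arm counts every probe of per1b and cry1b by itself. Its members were grouped by gene name, and whether each cryptochrome in it, cry2 and cry4 among them, represses Clock and Bmal was not tested. It also includes cry5, which stands beside the repressors only by family.

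**Figure D3:**
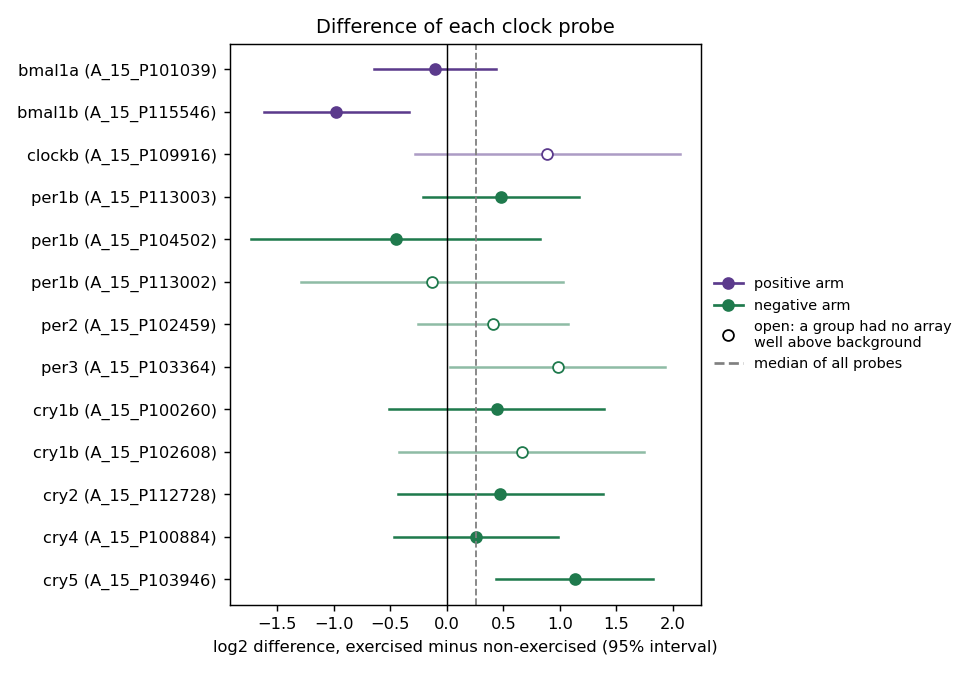
Log2 difference of exercised minus non-exercised fish (horizontal axis, bars are 95% intervals) for each clock probe, with the positive arm above the negative arm. Open points mark probes with no array well above background in at least 1 group, and the dashed line is the median of all probes (0.26). The intervals of bmal1b (-1.62 to -0.34) and cry5 (0.44 to 1.83) lie on opposite sides of 0, and among filled points they are the ones that do not reach it.

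The scalings moved the median of all probes, and the arms were therefore also read against it. This median was 0.26 with the 75th percentile shift and between -0.08 and 0.01 with the other 5 scalings and background corrections. Relative to it, the negative arm lay between 0.17 and 0.34 higher in all 6. The positive arm lay between 0.05 and 0.36 lower in 5 of them and 0.04 higher with cyclic loess. The 75th percentile shift and the median shift each move all probes of an array alike. Relative to the median of all probes they are nearly the same by construction, and not separate readings. These medians include clockb and other probes with no measured level in a group. Over the probes well above background in at least 1 array of each group, the arm medians were not set against all probes. There the positive arm (bmal1a and bmal1b) ran from -0.79 to -0.34 and the negative arm from 0.18 to 0.46 over the 6.

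The exercised and the non-exercised fish were also examined one group at a time, to see whether clock genes varied together between fish. With 1 probe per gene, 81 pairs had at least 6 fish. None had an adjusted p under 0.05 by exact permutation (two-sided, Benjamini-Hochberg over the 81), and 5 had an unadjusted p under 0.05, all in exercised fish. Each of those 5 pairs held a gene (clockb, per2, per3 or cry5) that was not well above background in at least 4 of the 8 exercised fish, so no value is given for them. A limit to genes well above background in at least 7 of the 8 fish of a group, added after the values were seen, left 12 pairs. None of these had an exact permutation p under 0.05, with or without adjustment. The largest r in size was that of bmal1a and cry2 in the 8 exercised fish (Pearson r = -0.68, exact permutation p = 0.0634, adjusted p = 0.386; Spearman rho = -0.62, exact permutation p = 0.115, adjusted p = 0.397). Without the 2 fish farthest from the median of bmal1a, r was 0.07. Those were exercised fish 4 (lowest bmal1a, 0.43, and highest cry2, 2.39) and exercised fish 8. The latter had the highest bmal1a (2.01) and the lowest cry2 (0.12, not well above background). The r of -0.68 thus rested on these 2 fish, though leaving them out also narrows the range of bmal1a. In the non-exercised fish the same pair had a Pearson r of -0.16. With values centred within each slide, or with the medium per1b probe, no pair had an adjusted p under 0.05 either.

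Among 1876 other named genes measured well above background on all arrays, the signal of bmal1a was most like that of rnf103 (r = 0.81 over 16 fish), pgk1 (r = 0.75 over 12 fish) and nfs1 (r = 0.75 over 16 fish), after the group means were taken out. Of 1827 genes, the bright per1b probe was most like ivd (r = 0.97 over 11 fish), adsl (r = 0.95 over 11 fish) and smyd1a (r = 0.95 over 10 fish). These genes were picked for their r, the fish share their slides and scaling, and no test applies.

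The measured part of the remaining clock machinery gave no called probe. The list held other core clock genes, the nuclear receptors that drive and repress bmal genes, the output factors tef and nfil3, kinases and ubiquitin ligase parts that mark Per and Cry proteins, and further repressors. Of its 59 gene symbols, 25 were measured, by 44 probes. The others had no probe named by accession, so nothing is said of them. None was called by limma or by the adjusted test of the methods, while 5 were higher and 1 lower at an unadjusted p under 0.05 in limma, where 12.2% of all probes were higher and 7.41% lower. The median difference was 0.16, with 31 positive and 13 negative, where all probes had a median of 0.26 and 64.9% were positive.

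Among the nuclear receptors, nr1d1, a repressor of bmal transcription, had the widest spread of its list. It passed the background test in 4 exercised fish, all of slide 3, and in 5 non-exercised fish. Its difference was 0.96 ± 0.77 (SE; limma adjusted p 0.56), with 1.99 for exercised fish of slide 3 alone and -0.06 for those of slide 4 alone. The related nr1d2b was well above background on all arrays and differed by 0.35 ± 0.33 (SE; limma adjusted p 0.63). Of the output factors, tefa differed by 0.07 ± 0.46 (SE; limma adjusted p 0.94) and nfil3 by -0.63 ± 0.39 (SE; limma adjusted p 0.42). The brightest probe of bhlhe40, which represses Clock and Bmal targets, differed by 0.01 ± 0.38 (SE; limma adjusted p 0.99). The paralogue clocka was not well above background on any array. The gene nr1d2b and the genes named from here on were picked after their values were seen.

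The lowest adjusted p of this list was 0.0663, for a probe of fbxl3a (A_15_P100100), part of the ubiquitin ligase that turns over Cry proteins. It was well above background on all 16 arrays and differed by 0.90 ± 0.29 (SE), with all 8 exercised fish above the non-exercised mean. A second fbxl3a probe (A_15_P112960) differed by 0.88 ± 0.38 (SE; limma adjusted p 0.20). The cryptochrome cry3b differed by 1.01 ± 0.45 (SE; limma adjusted p 0.22). It was well above background on all 4 arrays of slide 3, on none of slide 4 and on 1 non-exercised array. The deacetylase gene sirt1 and 1 probe of the kinase gene gsk3ba were higher at an unadjusted p under 0.05 in limma. Neither had a non-exercised array well above background, so they have no fold change. The gsk3ba probes measured in both groups differed by -0.74 ± 0.48 (SE; limma adjusted p 0.45) and -0.65 ± 0.55 (SE; limma adjusted p 0.58). The remaining gsk3ba probe was not well above background on any array. The 1 probe lower at an unadjusted p under 0.05 was that of tipin, which encodes a partner of Timeless. It differed by -1.20 ± 0.46 (SE; limma adjusted p 0.14) and passed the background test in 1 exercised and 6 non-exercised fish. A list of genes linked to light induction or DNA repair (cry5, cry-dash, neil1, tefa and per2) was measured by 6 probes for 5 genes. It shares cry5 and per2 with the clock members, and its only called probe was the cry5 probe already counted above. Over all probes 4.58% were called higher.

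**Figure D4:**
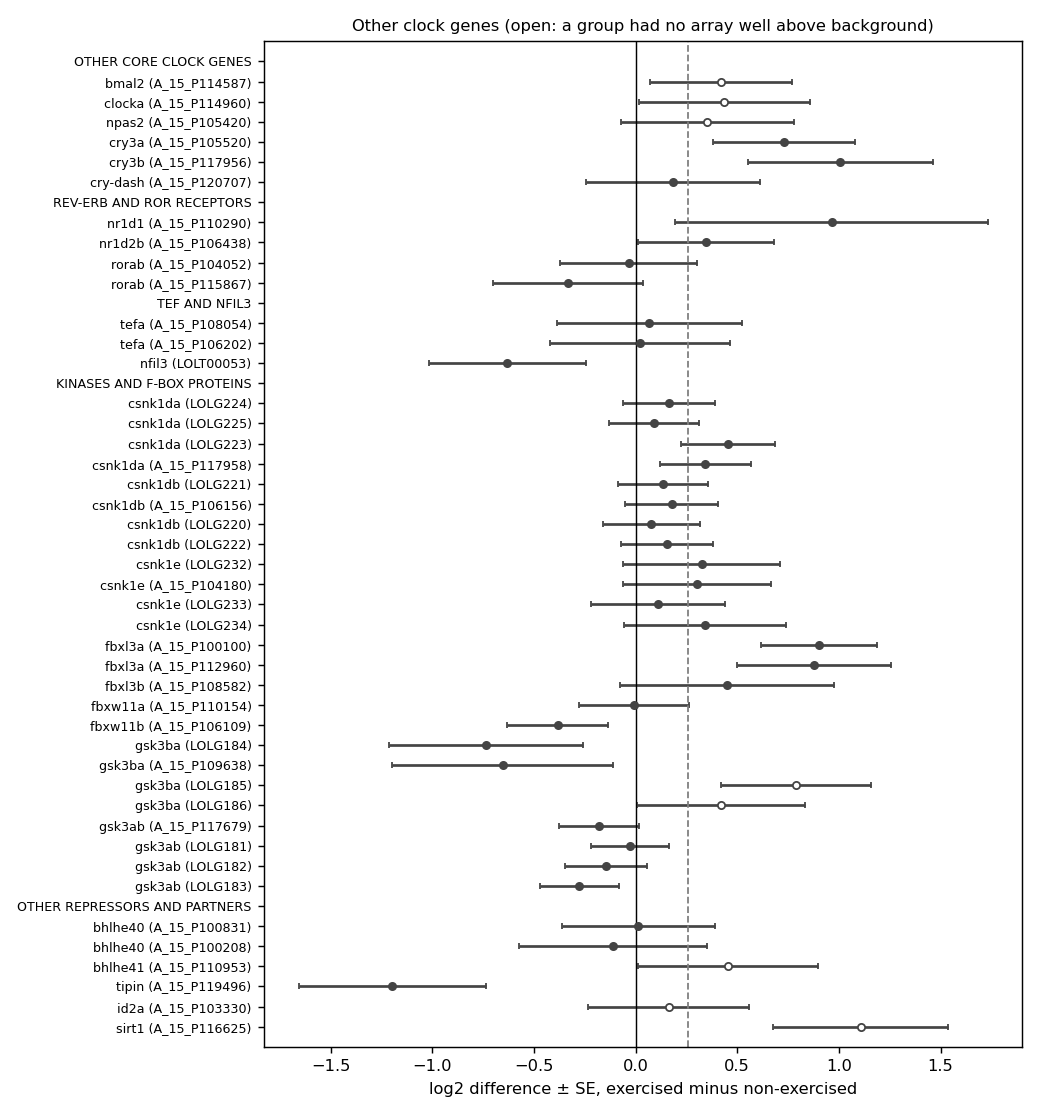
Log2 difference of exercised minus non-exercised fish with its SE (horizontal axis) for the 44 probes of other clock genes, grouped by role (vertical axis). Open points had no array well above background in at least 1 group, and the dashed line is the median of all probes (0.26). The 2 upper fbxl3a probes lie at 0.90 and 0.88, tipin lies at -1.20, and none was called.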

How the data were processed

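Fast muscle of 16 zebrafish was measured with 1 array each. The authors made the deposited scanner files with Agilent Feature Extraction 10.7.3.1, and the deposited spot intensity is linear, after background subtraction. The deposited table of the authors' own fold changes and p-values was not used. No probe or genome sequence was used.

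The log2 processed signal was taken relative to each array's 75th percentile, control spots excluded. Outlier spots were left out (49 to 892 per array), no spot was saturated, and between 21.1% and 54.0% of probes per array were well above background. With no counts, the number of arrays limits the precision. RefSeq accessions named 9104 probes with 5952 symbols. All probes were fitted with lmFit and eBayes (limma 3.58.1, statmod 1.5.0, R 4.3.3), with Benjamini-Hochberg adjustment. The fit was checked on simulated fish drawn independently, with planted differences larger than that of cry5. That check held no slide effect, so it cannot show how the calls fare under one. Figures and pair tests used Python 3.11.15 with scipy 1.17.1.

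A fold was given only where both groups had an array well above background, or where the bound against the lowest such signal exceeded 1. No clock probe reached such a bound. No fold was given for bmal1b and cry5, measured in few fish of a group, and their log2 differences compare spot signals. The gene name stood for its brightest probe where 1 value was needed. Members and lists were chosen with earlier results of these data known. By rule, the text names all member probes, called probes of other clock lists, the brightest probes of nr1d1, nr1d2a, dbpa, dbpb, tefa, nfil3, bhlhe40, ciarta, per1a, cry1a and clocka where measured, and the 3 genes most like the brightest fully measured member of each arm. Marker lists covered fast and slow muscle, red cells, skin and endothelium.

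Alternatives were no background correction, normexp (offset 50), quantile normalization, median shift, cyclic loess, filters on dim probes, the methods' t-test, slide as a random block, a replicate block, array weights, each slide of exercised fish alone and each fish left out. The medium per1b probe, the limit to probes well above background in each group and that to pairs measured in at least 7 fish were added after seeing the data. Slides hold 1 group each and could not be a fixed block.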

Additional observations from a re-analysis of the deposited data

Results flagged for a closer look

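In 3 clock probes, 1 fish lay far from the others of its group by Dixon's criterion, which was applied to 26 groups of fish and marks about 1 in 20 by chance. For bmal1b, exercised fish 6 measured -3.25 on the log2 scale, against -1.95 to -0.93 in the other exercised fish. For clockb, exercised fish 8 measured 1.16, against -4.11 to -2.51 in the other exercised fish, and it was the only fish in which clockb was well above background. For cry5, non-exercised fish 6 measured -0.82, against -3.13 to -2.31 in the other non-exercised fish, and it was the only non-exercised fish with cry5 well above background.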

How the results depend on the processing

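The number of clock probes called higher was 1 and became 0 without background correction, with normexp correction, quantile normalization, a median shift, cyclic loess, the methods' t-test after adjustment, the slide as a random block and slide 3 alone, and 2 with slide 4 alone. It was also 0 with either filter on dim probes, but each filter leaves out cry5 by construction and does not test its call. With 1 fish left out the number called higher ran from 0 to 1. The number called lower was 0 and became 1, bmal1b, with a median shift, cyclic loess, the milder filter (at least 8 arrays above background), the methods' t-test with no adjustment, array weights and slide 4 alone, and ran from 0 to 1 with 1 fish left out. That call came without exercised fish 1 (adjusted p 0.0459). The median of the positive arm was -0.10 and became -0.54 with that filter and with the limit to probes well above background in each group, since both leave out clockb by construction.

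Signs turned for bmal1a with cyclic loess (0.032), for clockb with normexp (-0.18), for per2 without background correction (-0.023), for the brighter cry1b probe with array weights (-0.10) and slide 3 alone (-0.20), for the dim cry1b probe with slide 3 alone (-0.13), and for the dimmest per1b probe with slide 4 alone (0.93). With 1 fish left out, bmal1a ran from -0.20 to 0.033 and the dimmest per1b probe from -0.44 to 0.11. The cause was not tested. Pairs of clock genes were tested in 4 settings only, and none passed in any of them.

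With the replicate block, 0 clock probes were called higher and cry5 had an adjusted p of 0.0739. Fish with the same replicate number correlated between 0.029 and 0.415, above 0.1 in 5 of 8 numbers and closest to their own number in 3 of 8. The labels state no link between them, and the numbers were not taken as pairs. With the block, 2256 of all probes were called higher and 991 lower.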
